A study of Mus musculus with 6 samples.

Results

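The genes described here are 38 genes of autophagy, chosen by name from the 16281 genes of the deposited count table. They comprise the ULK complex, the class III phosphatidylinositol 3-kinase (PI3K) complex, ATG9 and the lipid transfer proteins, the 2 ubiquitin-like conjugation systems with their ATG4 proteases and their LC3 and GABARAP substrates, 3 cargo receptors and the transcription factors Tfeb and Tfe3. All 38 had a row in the table and all 38 had enough counts to be tested.

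RNA was sequenced from CD8+ T cells of OT1 mice, whose T cells carry a transgenic receptor that sees an ovalbumin peptide (Tg(TcraTcrb)1100Mjb on C57BL/6). Splenic CD8+ T cells were activated for 48 h with plate-bound anti-CD3 at 2 μg/ml, anti-CD28 at 2 μg/ml and IL-2 at 20 ng/ml and were then expanded in IL-2 for another 3 days. GSK2879552 (GSK), an irreversible inhibitor of the histone demethylase LSD1, was present at 0.5 μM in 3 cultures throughout, and 3 cultures received vehicle (Veh), so that both groups shared the mouse line, the stimulation and the cytokine. Cells of 3 OT1 mice were used, their age and sex are not given in the sources used here, and nothing says whether same-numbered cultures of both groups came from 1 mouse. In such bulk RNA, fewer cells that express a gene and less of its RNA per cell cannot be told apart.

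Total counts lay between 18288447 and 18918811 in Veh and between 19149909 and 19846720 in GSK. The 8 T cell markers Cd3e, Cd3d, Cd3g, Cd8a, Cd8b1, Lck, Cd2 and Cd5 summed to between 3061 and 3310 CPM (counts scaled to the library total after TMM scaling) in every sample. Inside this sum the markers moved in different directions: Cd3e, Cd3d, Cd3g and Cd5 fell (log2 fold changes -0.23, -0.16, -0.38 and -0.50), Lck and Cd2 rose (0.13 and 0.15), and Cd8a and Cd8b1 did not pass. These differences are of the size of those of the autophagy genes given in what follows. The 2 CD4 T cell markers summed to 3.47 to 5.46 CPM, the 7 B cell markers to 6.20 to 8.21 CPM in Veh and 8.03 to 9.31 CPM in GSK, and the 3 erythroid markers to at most 0.272 CPM. Of the B cell markers, Cd22 was higher (0.409 ± 0.186 in Veh, 2.60 ± 0.279 CPM in GSK, edgeR adjusted p = 1.5e-04), Cd79b was at 6.51 ± 1.02 and 4.90 ± 0.238 CPM without passing, and Cd79a and Ms4a1 were below 1 CPM, higher in every GSK sample and too low to test. The 7 myeloid markers summed to 3.97 to 5.60 CPM in Veh and to 1.67 to 3.19 CPM in GSK. The sum of the 3 NK cell markers, almost all of it Eomes, which CD8+ T cells also express, was 196 to 215 CPM in Veh and 422 to 456 CPM in GSK, and Ncr1, which defines NK cells, had no count in Veh and 0.0175 CPM in GSK. The part of these differences in the results was not tested. Kdm1a, which encodes LSD1, was at 92.8 ± 5.45 in Veh and 87.1 ± 3.54 CPM in GSK (SD, n = 3 each) and did not pass (log2 fold change -0.09, standard error 0.055, edgeR adjusted p = 0.22). Since GSK acts on the protein, this level does not check the treatment.

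Autophagy encloses cytoplasm, organelles or protein aggregates in a double membrane and delivers them to the lysosome for breakdown. The ULK kinase complex starts the process downstream of nutrient and energy sensing, the PI3K complex marks the forming membrane with its lipid, vesicles with ATG9 and lipid transfer by ATG2 help it grow, and the conjugation enzymes attach LC3 and GABARAP proteins to it. Cargo receptors such as p62 bind both the cargo and the lipid-bound LC3. In T cells, autophagy is known for its part in survival, in the turnover of mitochondria and in the formation of memory. RNA levels of these genes do not measure the rate of autophagy.

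In the quasi-likelihood fit of edgeR over 11698 genes, with p-values adjusted by the Benjamini-Hochberg method and called under 0.05, 11 autophagy genes fell with GSK, 1 rose and 26 did not pass. The 12 genes that passed are 31.6% of the 38, where 32.1% of all genes tested passed. By direction, the 11 that fell were 28.9% of the 38 against 15.5% of all genes tested, and the 1 that rose was 2.63% against 16.6%. Over all genes, 1941 were higher and 1819 lower. With upper-quartile scaling the split was 1507 higher and 2254 lower, and 14 autophagy genes were lower and 1 higher. The lower count was 8 with DESeq2, 7 with the replicate number as a block, and 6, 7 and 7 without Veh replicate 2, Veh replicate 3 or GSK replicate 1. Over all genes, 1521 of 11861 were lower with DESeq2 and 1600 of 11698 with the block. Without Veh replicate 2, Veh replicate 3 or GSK replicate 1, it was 1530 of 11818, 1338 of 11824 and 1281 of 11858. The differences were small: 37 of the 38 genes differed by less than 1.5-fold, and for 33 the whole 95% interval lay within 1.5-fold in either direction. The 5 with a wider interval were Pik3c3, Atg9a, Wipi1, Atg4c and Map1lc3a.

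With a fold change over 1.5 required as well, only Wipi1 passed, as lower, while 6.32% of all genes tested passed both thresholds, 2.22% as higher and 4.09% as lower. The median log2 fold change of the 38 genes was -0.09 and that of all genes tested was -0.0039. Without 1 sample the median of the 38 lay between -0.12 and -0.037, the latter without GSK replicate 3, and it was -0.057 without Veh replicate 2 and -0.062 without GSK replicate 1. Of the 38, 26 had a log2 fold change below 0 and 12 above it. The samples of the groups did not overlap for 18 of the 38 (47.4%), against 46.7% of all genes tested, with GSK below Veh for 15 (against 23% of all genes tested) and above it for 3 (against 23.7%). Rb1cc1, Atg9a, Atg2a, Map1lc3b and Nbr1 were lower, and Atg3 higher, in each of 13 alternative fits, among which the stricter test of the fold change against 1.5 is not counted.

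**Figure D1:**
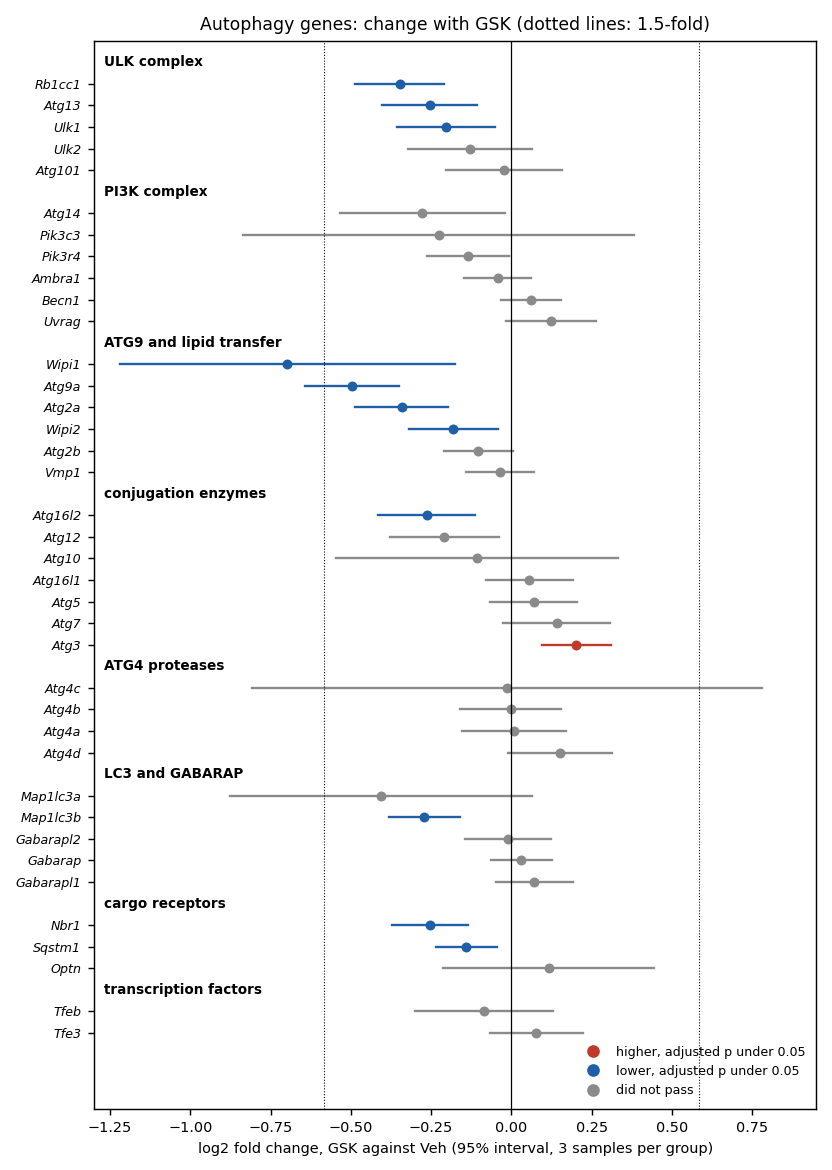
Log2 fold change of each of the 38 autophagy genes with GSK against Veh (x axis), with genes grouped by role (y axis). Points are estimates of edgeR, bars are 95% intervals from 3 samples per group, and dotted lines mark 1.5-fold. The 11 lower genes sit mostly in the ULK, ATG9 and cargo receptor groups, and Atg3 is the only higher gene.

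Promoters were read since LSD1 and the autophagy transcription factors act on chromatin. They are shown for genes whose call held in each of the 13 alternative fits. Those of Atg7 and Atg14, which did not pass, are shown because they hold a motif searched for. RefSeq's promoter sequences (GRCm38.p6, 250 bases before to 50 after a start site) held 40 promoters of 32 of the 38 genes. They were searched on both strands for TCACGTG, the core of the motif bound by TFEB and TFE3, and for GTAAACA, a motif of FOXO factors. TCACGTG was found in 3 of the 32 genes (9.38%), namely Atg3, Atg7 and Atg14, against 6.99% of the 9422 tested genes with a promoter and 3.77% of all 32851 promoters. GTAAACA was found in none of the 32, against 3.11% of the tested genes and 3.65% of all promoters. Atg3, the gene that rose, holds TCACGTG at -95 and -72 from the start site, and the match at -72 overlaps another on the opposite strand at -71. Capitals mark the motif in the 100 bases before the start of Atg3 (chr16:45158729-45158828, plus strand) and in shorter windows of Atg7 (chr6:114670952-114670980, plus strand, at -133 from a start site inside the annotated gene) and Atg14 (chr14:47568418-47568446, minus strand, across the start site):
Atg3: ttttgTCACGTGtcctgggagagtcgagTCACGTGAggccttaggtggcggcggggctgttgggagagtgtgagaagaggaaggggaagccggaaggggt
Atg7: catattggtggTCACGTGtgcagtaagtg
Atg14: aaacaaaatccCACGTGActggccctgag
These genes did not move alike, since Atg3 was higher and Atg7 and Atg14 did not pass.

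For the genes that fell in most fits, the 100 bases before the start site were also searched for CCAAT on either strand (ATTGG on the strand shown), a motif chosen after the sequences were seen. It was present in 6 of the 32 genes (18.8%) and in 26.6% of the tested genes with a promoter. Of the 10 genes that fell and have a promoter, 3 held it, namely Atg9a, Atg2a and Nbr1, beside the 26.6% of tested genes. It was absent from this window in all the others, which are Map1lc3b, Ulk1, Atg13, Wipi1, Wipi2, Atg16l2 and Sqstm1. Whether the motif has a part in the fall of these genes was not tested. Rb1cc1 has no sequence here. Capitals mark the motif in Atg9a (chr1:75192011-75192110, minus strand), Atg2a (chr19:6241568-6241667, plus strand), Nbr1 (chr11:101552554-101552653, plus strand, 1 of its 2 start sites) and Map1lc3b (chr8:121590338-121590437, plus strand):
Atg9a: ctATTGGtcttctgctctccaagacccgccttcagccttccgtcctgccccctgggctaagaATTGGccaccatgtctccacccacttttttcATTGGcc
Atg2a: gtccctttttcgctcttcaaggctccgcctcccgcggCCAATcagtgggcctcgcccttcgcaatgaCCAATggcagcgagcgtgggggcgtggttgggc
Nbr1: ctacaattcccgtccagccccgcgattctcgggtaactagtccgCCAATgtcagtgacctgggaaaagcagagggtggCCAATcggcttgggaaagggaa
Map1lc3b: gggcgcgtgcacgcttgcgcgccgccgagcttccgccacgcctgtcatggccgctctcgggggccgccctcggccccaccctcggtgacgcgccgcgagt
The window of Map1lc3b holds 18 CpG dinucleotides and that of Atg9a 2, so these promoters also differ in base composition, and a match is a description of the letters only.

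Of the 5 genes of the ULK complex, 3 fell and none rose, where 15.5% of all genes tested fell and 16.6% rose. Rb1cc1 encodes FIP200, the scaffold of the complex, and lies at chr1:6214634-6276375 on the plus strand of GRCm38. Its RNA was at 59.1, 55.1 and 54.5 CPM in the Veh samples and at 44.4, 47.0 and 41.2 CPM in the GSK samples. Every GSK sample was below every Veh sample, and the RNA fell by 0.35 on the log2 scale (standard error 0.064, edgeR adjusted p = 0.0014), so that the level fell by 21.4%. Antisense transcripts of 4732440D04Rik cover 3.80% of its exon bases, and it shares 9.36% of its 31-base stretches with other annotated genes. Atg13, the regulatory subunit that mTORC1 phosphorylates, was at 49.2, 48.9 and 43.0 CPM in Veh and 39.5, 40.8 and 37.9 CPM in GSK. The groups did not overlap, although Veh replicate 3 came close to the GSK samples (log2 fold change -0.25, standard error 0.068, edgeR adjusted p = 0.013). Without Veh replicate 1 or Veh replicate 2 its adjusted p was 0.060 and 0.052.

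Ulk1, the kinase itself, was at 39.1, 39.2 and 40.0 CPM in Veh and 32.2, 37.4 and 33.1 CPM in GSK. The Veh samples were close together and GSK replicate 2 came closest to them (log2 fold change -0.20, standard error 0.070, edgeR adjusted p = 0.041). The call was lost with DESeq2 (0.084), with the replicate number as a block (0.060) and without any sample other than GSK replicate 2 (0.083 to 0.16). Its relative Ulk2 was at 46.4, 42.1 and 45.1 CPM in Veh and 45.3, 42.2 and 34.6 CPM in GSK and did not pass (edgeR adjusted p = 0.29). GSK replicate 3 alone was low for Ulk2, and the groups overlapped. Atg101, which stabilises ATG13, was at 17.6 ± 0.610 in Veh and 17.3 ± 0.804 CPM in GSK (SD, n = 3 each), a log2 fold change with a 95% interval from -0.20 to 0.16.

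None of the 6 genes of the PI3K complex passed, where 32.1% of all genes tested did. Pik3c3, the lipid kinase VPS34, had the widest replicate spread of the well-expressed members, with 139, 104 and 163 CPM in Veh and 93.5, 118 and 136 CPM in GSK. The 95% interval of its log2 fold change ran from -0.84 to 0.38, so the direction could not be told at this spread. Becn1, the beclin-1 scaffold, was at 136, 133 and 137 CPM in Veh and 140, 138 and 145 CPM in GSK. Every GSK sample was above every Veh sample, yet the difference was small (log2 fold change 0.06, edgeR adjusted p = 0.30), and 43.9% of its exon bases lie antisense to Cntd1, a gene at 1.39 in Veh and 1.17 CPM in GSK.

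Atg14, the subunit that directs the kinase to the forming autophagosome, was at 12.02, 12.18 and 10.04 CPM in Veh and 9.61, 9.87 and 8.76 CPM in GSK. The groups did not overlap, but the adjusted p of edgeR was 0.092 at a log2 fold change of -0.28 (standard error 0.12). Uvrag, which takes the place of ATG14 in the endosomal form of the complex, had a log2 fold change of 0.12 (edgeR adjusted p = 0.17). Pik3r4, the VPS15 subunit, had one of -0.14 (edgeR adjusted p = 0.096, and 0.041 with upper-quartile scaling), and Ambra1, a regulator of beclin-1, one of -0.04 (edgeR adjusted p = 0.53).

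Wipi1 and Atg9a, of the ATG9 and lipid transfer genes, had the lowest log2 fold changes among the 38 (-0.70 and -0.50). In this group 4 of the 6 genes fell (15.5% of all genes tested did). GSK was below Veh without overlap for 5 of them (23% of all genes tested). Atg9a encodes the membrane protein of the vesicles that seed the autophagosome and lies at chr1:75180861-75192010 on the minus strand of GRCm38. It was at 64.6, 64.5 and 66.4 CPM in Veh and 47.09, 50.002 and 41.45 CPM in GSK. The highest GSK sample was far below the lowest Veh sample, and the RNA fell by 0.50 on the log2 scale (standard error 0.067, 95% interval -0.64 to -0.35, edgeR adjusted p = 1.9e-04), or by 29.1%. The predicted gene Gm29253 covers 31.8% of its exon bases on the same strand and has no row in the table. Ankzf1 covers 0.800% of them on the other strand and also fell, from 48.2 to 29.7 CPM (log2 fold change -0.70, edgeR adjusted p = 4.8e-05). Whether the counting used the strand is not given in the sources used here.

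Atg2a, one of the bridge-like proteins that carry lipid into the membrane, lies at chr19:6241478-6262304 on the plus strand. It was at 67.8, 58.8 and 66.9 CPM in Veh and 48.9, 54.0 and 49.8 CPM in GSK, with no overlap (log2 fold change -0.34, standard error 0.067, edgeR adjusted p = 0.0021). Its paralog Atg2b was at 90.3 ± 2.08 in Veh and 84.1 ± 3.65 CPM in GSK (SD, n = 3 each) and did not pass (log2 fold change -0.10, edgeR adjusted p = 0.13, and 0.050 with upper-quartile scaling). Whether the changes of the paralogs differ was read from the ratio of Atg2a to Atg2b in each sample. It was 0.767, 0.636 and 0.742 in Veh and 0.558, 0.639 and 0.620 in GSK, and these overlapped (exact permutation test, two-sided, p = 0.20).

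Wipi1 and Wipi2 encode WIPI proteins, which bind the lipid made by the PI3K complex. Wipi1 was at only 3.05, 4.13 and 3.73 CPM in Veh and 2.21, 2.83 and 1.67 CPM in GSK, a mean of 55.7 counts per sample. The groups did not overlap and the fold was 1.62, the largest among the 38 genes (log2 fold change -0.70, standard error 0.24, edgeR adjusted p = 0.041), with a 95% interval from -1.22 to -0.18. The call was lost with DESeq2 (0.072), with the replicate block (0.0504) and without Veh replicate 2 (0.13), Veh replicate 3 (0.098), GSK replicate 1 (0.11) or GSK replicate 3 (0.13). Wipi2, the WIPI protein that recruits ATG16L1, was at 56.3, 61.2 and 66.0 CPM in Veh and 56.0, 53.0 and 52.9 CPM in GSK. Its lowest Veh sample nearly touched its highest GSK sample (log2 fold change -0.18, standard error 0.064, edgeR adjusted p = 0.047). That call was lost with DESeq2 and with the replicate block (0.081 each) and without any sample other than Veh replicate 1 (0.076 to 0.21). Vmp1, a scramblase of the endoplasmic reticulum, had a log2 fold change of -0.04 (edgeR adjusted p = 0.61).

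**Figure D2:**
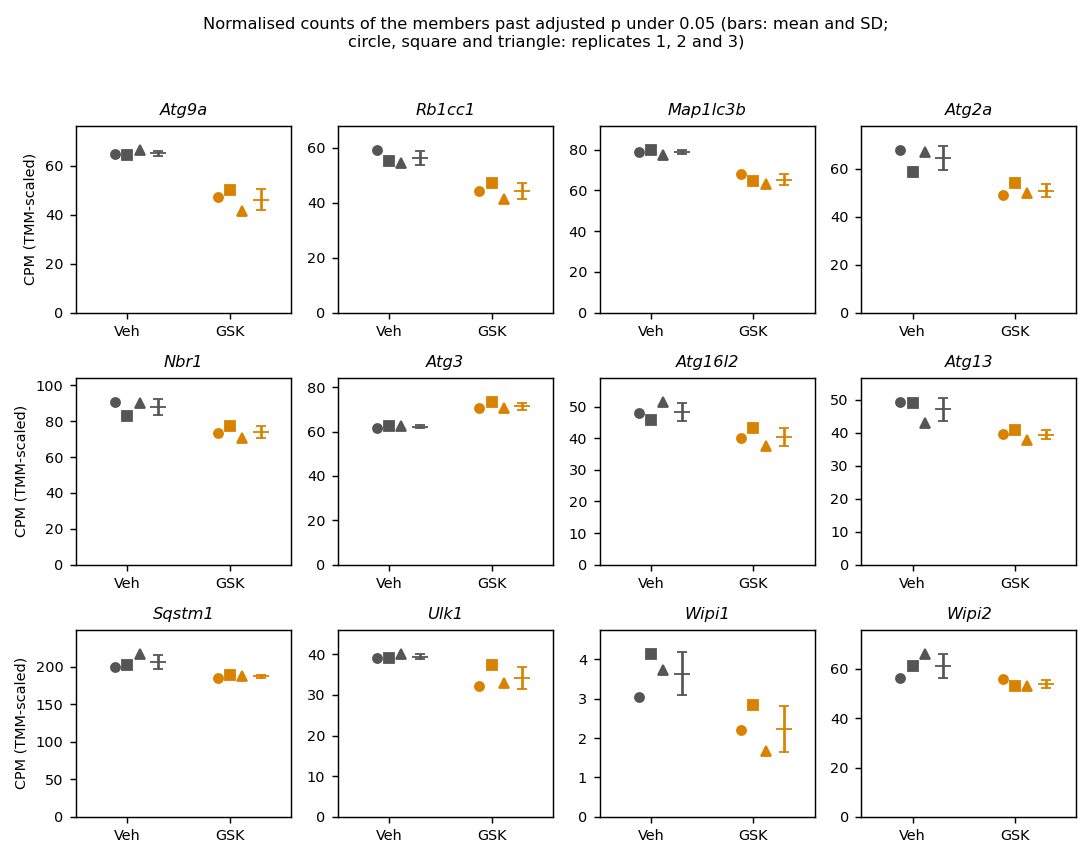
TMM-scaled CPM (y axis, from 0) of the 12 autophagy genes past an adjusted p of 0.05 in the Veh and GSK samples (x axis). Circles, squares and triangles are replicates 1, 2 and 3, and bars give mean and SD. The groups are separate in all 12 panels, widely for Atg9a and narrowly for Wipi2.

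Of the 7 genes of the conjugation enzymes, 1 rose and 1 fell (14.3% each, against 16.6% and 15.5% of all genes tested). Atg3, the E2-like enzyme that transfers LC3 and GABARAP to phosphatidylethanolamine, lies at chr16:45158829-45188538 on the plus strand of GRCm38. It was at 61.5, 62.5 and 62.5 CPM in Veh and 70.5, 73.3 and 70.8 CPM in GSK. The samples of each group lay close together and far from the other group, and the RNA was 15.0% higher (log2 fold change 0.20, standard error 0.049, edgeR adjusted p = 0.0079). Its promoter is the one printed with 2 separate TCACGTG sites. Atg7, the E1-like enzyme in front of it, was at 29.9, 26.8 and 32.2 CPM in Veh and 32.7, 31.9 and 33.4 CPM in GSK and did not pass, with 1 overlapping sample in each group (log2 fold change 0.14, edgeR adjusted p = 0.18).

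Atg16l2 was the conjugation gene that fell. It encodes a relative of ATG16L1, the protein that places the ATG12-ATG5 conjugate on the membrane. Atg16l2 was at 47.9, 45.9 and 51.4 CPM in Veh and 40.2, 43.3 and 37.5 CPM in GSK, with no overlap (log2 fold change -0.26, standard error 0.070, edgeR adjusted p = 0.012). Without Veh replicate 3 its adjusted p was 0.063. Atg16l1 itself was at 39.1 ± 1.97 in Veh and 40.6 ± 0.866 CPM in GSK (SD, n = 3 each) and did not pass (edgeR adjusted p = 0.54). The ratio of Atg16l2 to Atg16l1 was 1.16, 1.22 and 1.35 in the Veh samples and 1.00, 1.08 and 0.901 in the GSK samples. The ratios did not overlap (two-sided exact permutation p = 0.10, the smallest that 3 against 3 samples allow, or 0.14 after Benjamini-Hochberg adjustment over the 7 pairs compared).

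Atg12, the ubiquitin-like protein itself, was at 45.1, 42.4 and 38.9 CPM in Veh and 35.96, 39.88 and 33.42 CPM in GSK. Its groups overlapped and it did not pass (log2 fold change -0.21, edgeR adjusted p = 0.059). It was lower with library totals alone (0.045), upper-quartile scaling (0.029), no filter on low counts (0.041) and without Veh replicate 3 (0.045) or GSK replicate 2 (0.012). Atg5, its conjugation partner, had a log2 fold change of 0.07 (edgeR adjusted p = 0.43). Atg10, the E2-like enzyme of that conjugation, was at 4.36 ± 0.608 in Veh and 4.04 ± 0.942 CPM in GSK (SD, n = 3 each) with a 95% interval of its log2 fold change from -0.55 to 0.33.

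The ATG4 proteases trim LC3 and GABARAP before conjugation and release them from membranes afterwards. None of the 4 passed, where 32.1% of all genes tested did. Atg4a and Atg4b had log2 fold changes of 0.01 and 0.00, with 95% intervals from -0.15 to 0.17 and from -0.16 to 0.16. Atg4a shares 60.8% of its 31-base stretches with other annotated genes, chiefly its pseudogene Atg4a-ps, so its counts are uncertain. Atg4d was above Veh in all GSK samples without passing (log2 fold change 0.15, edgeR adjusted p = 0.14), and 19.3% of its exon bases lie antisense to Kri1, which rose (log2 fold change 0.13, edgeR adjusted p = 0.040). Atg4c, at 0.748 ± 0.131 in Veh and 0.740 ± 0.149 CPM in GSK, was so low that its 95% interval ran from -0.81 to 0.78.

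Of the 5 LC3 and GABARAP genes, 1 fell (20%) and none rose, where 15.5% of all genes tested fell and 16.6% rose. Map1lc3b encodes LC3B, the form widely used as the marker of autophagosomes, and lies at chr8:121590438-121598760 on the plus strand. It was at 79.0, 79.7 and 77.5 CPM in Veh and 68.1, 64.6 and 62.9 CPM in GSK. All GSK samples were below all Veh samples by more than the range of either group (log2 fold change -0.27, standard error 0.051, edgeR adjusted p = 0.0016), and the level fell by 17.2%. It shares 7.77% of its 31-base stretches with other annotated genes. Map1lc3a, which encodes LC3A, was at 3.26, 2.95 and 2.84 CPM in Veh and 1.94, 2.53 and 2.35 CPM in GSK. These groups did not overlap either, yet at this depth the adjusted p of edgeR was 0.18 and the 95% interval ran from -0.88 to 0.07.

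The GABARAP branch stayed close to its Veh level. Gabarap was at 151, 142 and 145 CPM in Veh and 145, 151 and 152 CPM in GSK, and its interval lay between -0.06 and 0.13 on the log2 scale. Gabarapl1 was at 53.0, 55.5 and 53.7 CPM in Veh and 54.4, 58.5 and 57.5 CPM in GSK, with an interval from -0.05 to 0.19, and 28.3% of its exon bases lie antisense to another gene. Gabarapl2 was at 49.6, 46.7 and 47.0 CPM in Veh and 44.68, 49.95 and 47.60 CPM in GSK, with an interval from -0.14 to 0.12, and it shares 15.2% of its 31-base stretches with other annotated genes. The groups overlapped for all 3, and none passed (edgeR adjusted p = 0.63, 0.35 and 0.91). The ratio of Map1lc3b to Gabarap was 0.523, 0.560 and 0.533 in the Veh samples and 0.469, 0.428 and 0.414 in the GSK samples. It was lower in every GSK sample, by 0.30 on average on the log2 scale (log2 means -0.89 and -1.20, two-sided exact permutation p = 0.10, the smallest possible, 0.14 adjusted over the 7 pairs).

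**Figure D3:**
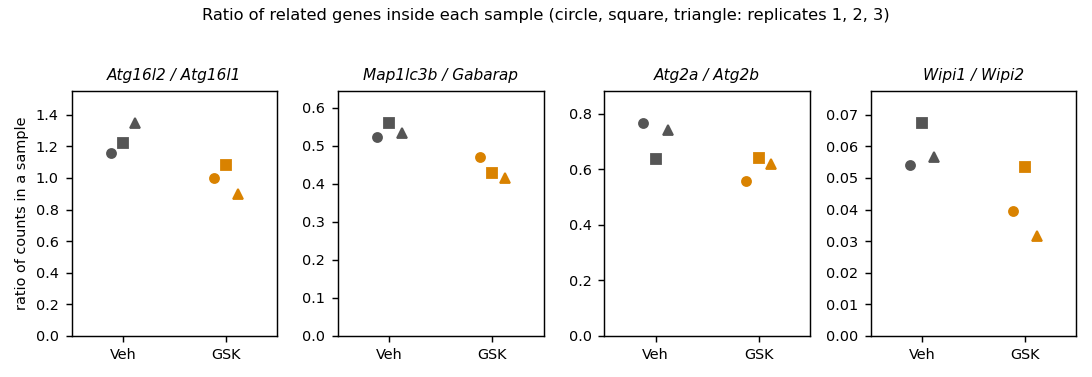
Ratio of counts of related genes inside each sample (y axes, from 0) for 4 of the 7 pairs compared, in Veh and GSK (x axis). Circles, squares and triangles are replicates 1, 2 and 3. Veh and GSK do not overlap for Atg16l2 to Atg16l1, Map1lc3b to Gabarap and Wipi1 to Wipi2, and overlap for Atg2a to Atg2b.

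Of the 3 cargo receptors, 2 fell, against 15.5% of all genes tested. Nbr1, a receptor for ubiquitin-marked aggregates and peroxisomes, lies at chr11:101552107-101581951 on the plus strand. It was at 90.6, 83.1 and 90.1 CPM in Veh and 73.4, 77.3 and 70.6 CPM in GSK, without overlap (log2 fold change -0.25, standard error 0.055, edgeR adjusted p = 0.0039). Sqstm1, which encodes p62, was at 200, 203 and 217 CPM in Veh and 185, 189 and 188 CPM in GSK. The GSK samples lay close together just under the Veh samples, and the mean fell by 9.25% (log2 fold change -0.14, standard error 0.044, edgeR adjusted p = 0.029). The call was lost with the replicate block (0.055) and without Veh replicate 2 (0.052), Veh replicate 3 (0.14) or GSK replicate 1 (0.11). Of its exon bases 17.3% lie antisense to Mrnip, which fell from 8.89 to 6.49 CPM (log2 fold change -0.46, edgeR adjusted p = 0.018). Optn, which encodes optineurin, a receptor for damaged mitochondria, was at 6.04 ± 0.847 in Veh and 6.55 ± 0.489 CPM in GSK (SD, n = 3 each) and did not pass (edgeR adjusted p = 0.59).

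Tfeb and Tfe3 encode related transcription factors of lysosome and autophagy genes whose activity is set largely by phosphorylation. Tfeb was at 14.5, 17.7 and 16.7 CPM in Veh and 14.8, 14.8 and 16.5 CPM in GSK. Tfe3 was at 31.004, 31.54 and 32.16 CPM in Veh and 35.1, 32.9 and 31.9 CPM in GSK. The groups overlapped for both, and neither passed (log2 fold changes -0.09 and 0.08, edgeR adjusted p = 0.54 and 0.41).

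The levels of the 38 genes per kb of their principal transcript spanned a wide range in Veh. Gabarap, at 108 ± 3.24 CPM per kb (SD, n = 3), and Sqstm1, at 101 ± 4.52 CPM per kb, were the highest and did not differ beyond their spread. Pik3c3 (41.6 ± 9.13) and Vmp1 (37.9 ± 1.20 CPM per kb) followed far below and could not be ordered against each other. Next came Wipi2, Map1lc3b, Becn1, Atg3, Gabarapl1 and Gabarapl2, which lay between 28.5 and 31.2 CPM per kb. Map1lc3b went from 31.1 ± 0.456 to 25.8 ± 1.06 CPM per kb with GSK, from rank 6 to rank 10, while Atg3 went from 30.2 ± 0.296 to 34.8 ± 0.755, from rank 8 to rank 5. The lowest were Map1lc3a, Optn, Wipi1 and Atg4c, at 2.71, 2.31, 1.77 and 0.235 CPM per kb. With all exon bases of a gene as its length, Gabarap, Sqstm1, Pik3c3 and Vmp1 kept the highest places and Wipi1 and Atg4c the lowest, while Wipi2 moved from rank 5 to rank 21 (5.80 CPM per kb) and Map1lc3b from rank 6 to rank 15 (10.5 CPM per kb).

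**Figure D4:**
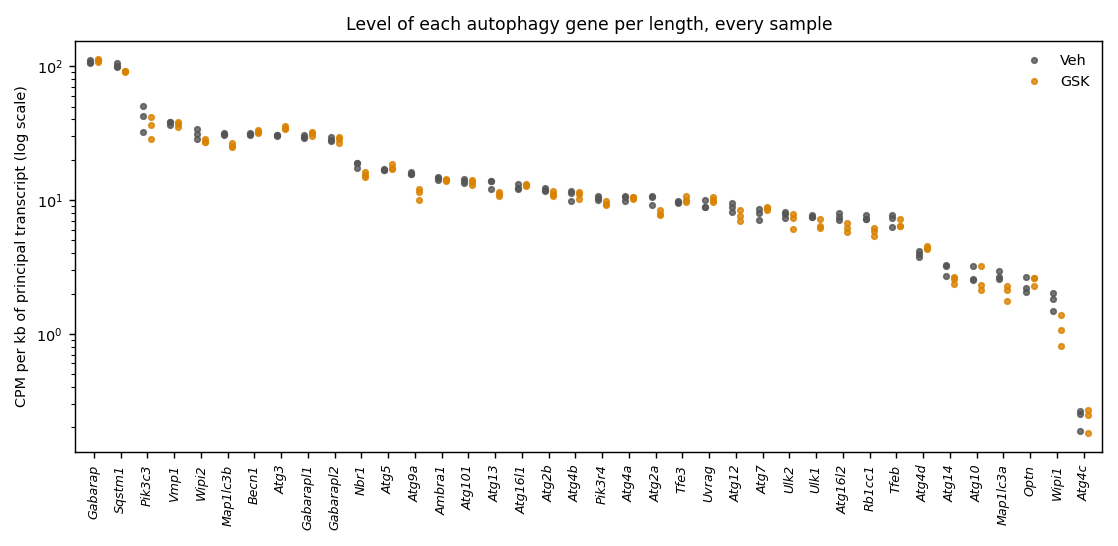
Level of each of the 38 autophagy genes in CPM per kb of principal transcript (log axis), in order of the Veh mean, for each Veh and GSK sample. Gabarap and Sqstm1 stand above the rest at 108 and 101 CPM per kb in Veh, and Atg4c is lowest at 0.235.

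Around the 38 genes, a list of 84 further genes of the pathway was read from the same fit, and 80 had enough counts to be tested. Of the 80, 10 rose and 16 fell (32.5% in all, against 32.1% of all genes tested), and 8 fell past both thresholds while none rose past both. Those 10 and 16 genes are 12.5% and 20% of the 80, where 16.6% and 15.5% of all genes tested rose and fell, and 4.09% of all genes fell past both thresholds. The count of genes that rose was 5 with DESeq2, with upper-quartile scaling and with the replicate block.

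Selective autophagy receptors held 4 of the 8 genes that fell past both thresholds, with 6 lower and 1 higher of 17 tested (35.3% and 5.88%, against 15.5% and 16.6% of all genes tested). Bnip3l, a receptor that marks mitochondria for breakdown, was at 226, 215 and 241 CPM in Veh and 137, 134 and 109 CPM in GSK (log2 fold change -0.85, standard error 0.085, edgeR adjusted p = 1.8e-04). Its relative Bnip3 was at 273, 264 and 289 CPM in Veh and 188, 178 and 166 CPM in GSK (log2 fold change -0.63, standard error 0.053, edgeR adjusted p = 4.9e-06). For Bnip3l and Bnip3 every GSK sample lay far below every Veh sample. This fall was not shared by all receptors listed, since 10 of the 17 did not pass and Phb2 rose. Phb2 was at 175, 192 and 187 CPM in Veh and 213, 201 and 225 CPM in GSK. Its log2 fold change was 0.20 (standard error 0.052, edgeR adjusted p = 0.0099). The call of Phb2 was lost without Veh replicate 1 (0.053). Ccpg1, a receptor for the endoplasmic reticulum, went from 29.6 ± 3.30 to 18.0 ± 1.70 CPM (SD, n = 3 each; log2 fold change -0.72, edgeR adjusted p = 1.9e-04). Calcoco1, another such receptor, went from 35.5 ± 2.36 to 20.0 ± 4.17 CPM (log2 fold change -0.82, edgeR adjusted p = 0.0016).

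Among 9 tested genes of the further core machinery, 3 fell (33.3%) and 1 rose (11.1%), against 15.5% and 16.6% of all genes tested. Wdr45, a relative of the WIPI proteins, went from 34.3 ± 2.06 to 24.4 ± 2.56 CPM (SD, n = 3 each; log2 fold change -0.49, edgeR adjusted p = 9.7e-04). Atg9b, the paralog of Atg9a, was at 17.8, 17.1 and 18.1 CPM in Veh and 14.5, 14.4 and 13.9 CPM in GSK, so both ATG9 genes fell (log2 fold change -0.31, standard error 0.085, edgeR adjusted p = 0.014). The adjusted p of Atg9b was 0.0504 with DESeq2 and 0.052 without Veh replicate 3. Ulk3 also fell (edgeR adjusted p = 0.031), with overlapping groups, and Tmem41b rose (edgeR adjusted p = 0.029). They were called in 9 and 7 of 14 fits, the main fit included. Of the 17 genes of fusion with the lysosome, 2 fell and 2 rose (11.8% each, against 15.5% and 16.6% of all genes tested). The SNARE protein gene Stx17 was at 44.2, 41.1 and 45.4 CPM in Veh and 33.8, 33.4 and 29.8 CPM in GSK (log2 fold change -0.43, standard error 0.071, edgeR adjusted p = 6.9e-04). Ykt6, another SNARE of this step, rose by less (log2 fold change 0.15, standard error 0.049, edgeR adjusted p = 0.030). That call was lost with DESeq2 (0.053), the replicate block (0.052), upper-quartile scaling (0.085) and without Veh replicate 1, Veh replicate 3, GSK replicate 1 or GSK replicate 3 (0.056 to 0.12). Vps16, which fell, and Rab7, which rose, were just under the threshold (edgeR adjusted p = 0.049965 and 0.0490). They were called in 6 and 3 of 14 fits, the main fit included.

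Of the 33 tested genes of AMPK and mTORC1 signalling, 6 rose (18.2%) and 4 fell (12.1%), against 16.6% and 15.5% of all genes tested. Those that fell past both thresholds were Ddit4, Sesn1 and Prkab2, the former pair inhibitors of mTORC1 and the last a subunit of AMPK. Ddit4 went from 256 ± 10.3 to 157 ± 2.04 CPM (SD, n = 3 each; log2 fold change -0.70, edgeR adjusted p = 4.3e-07) and Sesn1 from 80.6 ± 4.32 to 53.1 ± 4.21 CPM (log2 fold change -0.60, edgeR adjusted p = 4.0e-05). Prkab2 was at 18.6, 15.0 and 18.5 CPM in Veh and 13.6, 9.62 and 10.8 CPM in GSK (log2 fold change -0.62, standard error 0.13, edgeR adjusted p = 0.0043). The genes that rose were Sesn2, Fnip2, Rragc, Lamtor1, Lamtor3 and Lamtor4, all by less than 1.5-fold. Sesn2 and the 3 Lamtor genes were higher in each of the 13 alternative fits. Fnip2 lost its call with DESeq2 (0.082), the replicate block (0.059), library totals (0.051), upper-quartile scaling (0.063) and without Veh replicate 1, Veh replicate 3, GSK replicate 1 or GSK replicate 3 (0.063 to 0.19). Rragc lost it with DESeq2 (0.057), the replicate block (0.055), upper-quartile scaling (0.080) and without any Veh replicate or GSK replicate 3 (0.053 to 0.11). Sesn2, a relative of Sesn1, was at 29.6, 31.7 and 29.5 CPM in Veh and 44.8, 37.9 and 38.9 CPM in GSK, opposite to Sesn1 (log2 fold change 0.42, standard error 0.076, edgeR adjusted p = 0.0013). Lamtor1, Lamtor3 and Lamtor4 encode subunits of the Ragulator complex, which anchors mTORC1 regulation at the lysosome. Lamtor2 and Lamtor5, also of this complex, overlapped between the groups and did not pass (log2 fold changes 0.05 and 0.04, edgeR adjusted p = 0.66 and 0.63).

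Of the 4 tested transcription factors of autophagy genes, Foxo3 fell (25%, against 15.5% of all genes tested) and the others did not pass. Foxo3 was at 88.1, 86.3 and 84.6 CPM in Veh and 49.1, 49.8 and 43.3 CPM in GSK (log2 fold change -0.86, standard error 0.060, edgeR adjusted p = 1.2e-06). Zkscan3, a repressor of autophagy genes, did not pass (log2 fold change -0.17, standard error 0.066, edgeR adjusted p = 0.069), but was lower with library totals (0.049), upper-quartile scaling (0.032) and without GSK replicate 2 (0.020).

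**Figure D5:**
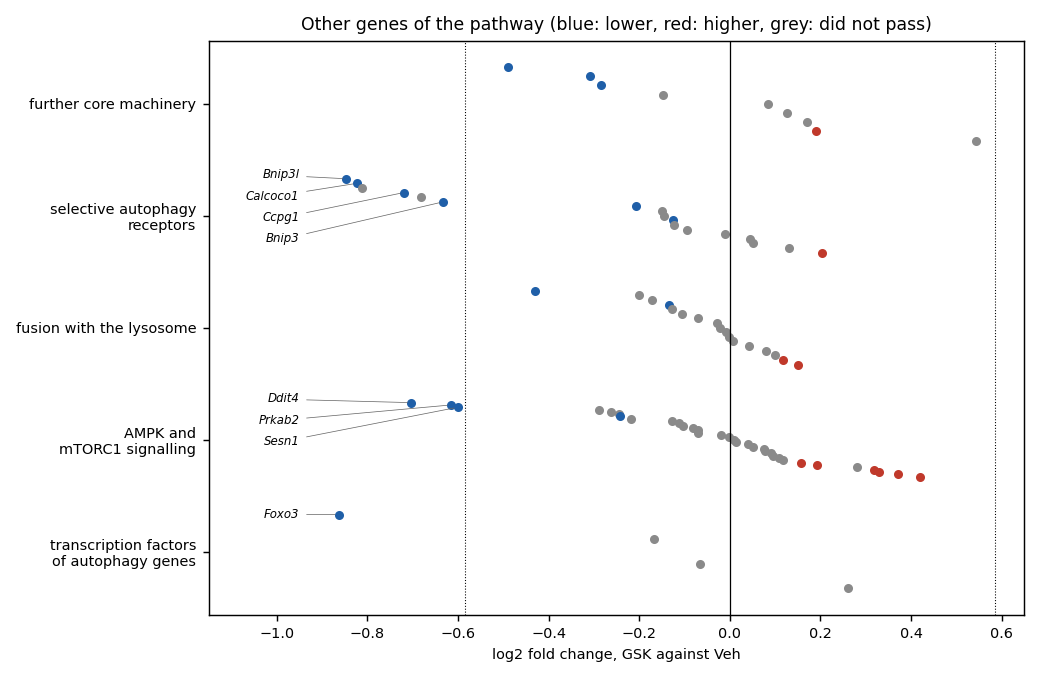
Log2 fold change with GSK against Veh (x axis) of the 80 further pathway genes tested, by role (y axis). Blue points are lower and red points higher at an adjusted p under 0.05, grey points did not pass, dotted lines mark 1.5-fold, and the 8 named genes fell past both thresholds.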

How the data were processed

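The whole-number counts per gene that the authors deposited were not normalized. Per the labels and the study's methods, polyadenylated RNA was made into stranded libraries, sequenced as paired reads, trimmed with Trimmomatic, mapped to GRCm38 with HISAT2 (version 2.1.0) and counted with HTSeq (version 0.11.2). The annotation release and the strand setting are not given in the sources used here, so counts of genes that overlap others or share sequence with pseudogenes are uncertain. The table also holds annotation columns and no comparison columns.

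All 6 samples entered 1 fit of edgeR (version 4.0.16, under R version 4.3.3): TMM scaling, filterByExpr, the robust quasi-likelihood test and Benjamini-Hochberg adjustment over the 11698 genes kept. CPM are TMM-scaled. Standard errors were derived from the test statistic. The script was tested on simulated data. The alternatives were DESeq2 (version 1.42.0), RLE, library totals and upper-quartile scaling, no filter, a mean count filter of 10, the replicate number as a block, a test of the fold against 1.5 and leaving out each sample. Same-numbered samples did not all deviate together (see the closing section), so the block was only an alternative. The p-values of edgeR rest on the spread between these 3 samples per group, moderated for each gene by the spread of all genes kept.

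Members and lists were chosen with earlier results of these data known. All 38 members were named; of the other pathway genes, those past both thresholds and the 2 with the smallest adjusted p per list. Sesn2, the Lamtor genes and other genes that rose, Vps16, Ulk3 and Pink1 were named after their values were seen. So were single marker genes, overlapping genes and ratios of related genes. Levels per kb and overlaps used GENCODE exons of GRCm38.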

Additional observations from a re-analysis of the deposited data

How the results depend on the processing

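Over 13 alternatives for each of the 38 genes, 460 values kept their side of the threshold, 27 lost the call, 7 gained it and none reversed while called. Of the 460, 18 values changed sign, in 7 genes without a call. The 11 lower autophagy genes became 7 with the replicate block and 0 when the fold was tested against 1.5, which also left 0 of the 1 higher gene, and 6 to 11 when a sample was left out. The 1 gene past both thresholds, Wipi1, became 0 with DESeq2, the replicate block and the test of the fold, and 0 to 1 with a sample left out. The median log2 fold change of the 38 genes was -0.13 with upper-quartile scaling and -0.12 to -0.037 with a sample left out. In the wider list the 10 higher genes became 5 with DESeq2, upper-quartile scaling and the replicate block, 0 with the test of the fold and 5 to 10 with a sample left out, and the 16 lower genes became 1 with the test of the fold and 11 to 23 with a sample left out. Its 8 genes lower past both thresholds became 1 with the test of the fold. Over all genes the test of the fold left 69 higher and 65 lower, from 1941 and 1819, or from 260 and 479 past both thresholds. With a sample left out there were 1288 to 2090 higher and 1281 to 2013 lower genes. The test of the fold asks for more than 1.5-fold by its construction; the cause of the other changes was not tested. Correlations across genes of same-numbered samples' deviations from their group means were -0.05, -0.08 and 0.16, and 1 of the 3 Veh samples correlated best with its own number, so the numbers are not taken as pairs. Veh 1 correlated with GSK 2 (0.22), Veh 2 with GSK 1 (0.11) and Veh 3 with GSK 3 (0.16), and every other correlation was negative. Deviations from a group mean sum to 0, so each sample was bound to have correlations of both signs. The signs alone therefore mark no pairs. Whether samples matched in this way share a mouse was not tested, and no fit paired them so. Besides the genes named in the report, the block changed no call among the 38. Among the wider genes it lost 9 calls and gained 1, that of Pink1. Low counts limit Atg4c, Map1lc3a, Wipi1 and Atg10.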

Other observations

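Among the 7 pairs of related genes whose ratio was read inside each sample, 2 more did not overlap between the groups. Atg9b to Atg9a was 0.275, 0.265 and 0.273 in Veh and 0.309, 0.287 and 0.335 in GSK, so Atg9b made up more of the ATG9 counts in every GSK sample although both genes fell. Nbr1 to Optn was 15.7, 15.5 and 12.9 in Veh and 12.3, 11.3 and 10.3 in GSK. Each had a two-sided exact permutation p of 0.10, the smallest that 3 against 3 samples allow, and 0.14 after adjustment over the 7 pairs. The ratio of Ulk1 to Ulk2 overlapped between the groups, from 0.842 to 0.931 in Veh and from 0.711 to 0.955 in GSK (two-sided exact permutation p = 0.80).

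Summed over the 38 genes, the Veh samples held 2093, 2035 and 2131 CPM and the GSK samples 1914, 1999 and 1946 CPM, with no overlap. The sum of the 6 ATG9 and lipid transfer genes was 390.4 ± 9.46 CPM in Veh and 340.4 ± 11.2 CPM in GSK, that of the 7 conjugation genes 265.4 ± 5.54 and 267.1 ± 6.32 CPM (SD, n = 3 each).

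Pink1, the kinase that marks damaged mitochondria, was at 60.1, 44.5 and 41.1 CPM in Veh and 28.1, 40.5 and 22.0 CPM in GSK. The groups came within 1 CPM of each other, and it did not pass (log2 fold change -0.68, standard error 0.28, edgeR adjusted p = 0.14). It was called lower with the replicate block (0.039) and without GSK replicate 2 (0.040).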
